A study of Mus musculus with 30 samples.

Results

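Genes of the proteasome were measured in mouse tail fibroblasts after 48 hours with 1 of 8 compounds or with DMSO alone, the solvent. Members were the protein-coding genes whose symbol is Psm followed by a letter from a to g and a number. The inducible genes Psmb8, Psmb9 and Psmb10 were left out, and a level of 1 TPM (transcript abundance scaled by length and to a fixed total per library) was required in at least 3 libraries. The rule matched 47 names and kept 44 genes of the 29861 in the table, and all 44 were among the 13644 genes tested. They are 7 alpha and 7 beta genes of the core, 6 ATPase and 14 non-ATPase genes of the cap, 5 activator and inhibitor genes, 4 assembly chaperones, and Psmc3ip. Psmc3ip encodes a meiotic recombination factor and matched by its name alone. Psma8, Psmb11 and Psme2b failed the limit on TPM. Psma8, a testis form of an alpha gene, and Psmb11, the thymus form of a catalytic beta gene, stayed below 1 TPM in every library, with highest values of 0.517 and 0.289 TPM. Psme2b reached 1.02 TPM in 1 library. Just inside the limit, Psmc3ip ranged from 1.55 to 3.50 TPM and Psmd9 from 9.98 to 16.5 TPM.

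By its title, the study sorted compounds that make cells resist stress by whether NRF2, an activator of antioxidant genes, is needed. All 30 libraries came from 1 primary line, CCG-HTA-1, derived from the UMHet3 strain and at passage 4. The groups were the respiratory chain inhibitors Antimycin A and Dihydrorotenone, the flavoenzyme inhibitor Diphenyleneiodonium Cl, the plant chalcone Cardamonin, the potassium channel blocker Clofilium tosylate, Podofilox, which blocks tubulin polymerisation, BerberineA, AEG 3482 and DMSO. Each compound had 3 libraries and DMSO had 6 by the labels (the series text speaks of 5), all collected at 48 hours, and doses are not given in the labels. The labels give donor mice of 5 to 8 weeks for 29 libraries and of 8 to 11 weeks for Dihydrorotenone replicate 1. Replicates are therefore cultures or libraries of 1 line, and p-values measure the spread between them, which may be technical. Library numbers run consecutively within each group, so a batch that followed that order and the group cannot be told apart.

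The proteasome is a barrel-shaped protease that degrades proteins tagged with ubiquitin. Its core is a stack of alpha rings, which form the gate, around beta rings, which hold the catalytic sites. A cap of ATPases and non-ATPases recognises ubiquitin, removes it, unfolds the substrate and feeds it to the core, while other activators open the gate without ATP. In mammalian cells the genes of the core and the cap are known to be raised together by NFE2L1, a relative of NRF2, when proteasome capacity falls short.

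Depth cannot be read from TPM. Per library, 12229 to 12700 genes were at 1 TPM or more. All 9 fibroblast markers were expressed, with a sum of 9750 to 11270 TPM in the DMSO libraries. That sum was 3803 to 4815 TPM with Cardamonin, below every other group. The sum of the 4 macrophage and leukocyte markers was 24.4 to 29.5 TPM in DMSO and 28.6 to 44.9 TPM with Cardamonin. The part of either in the Cardamonin results was not tested. The keratinocyte markers Krt5, Krt14 and Krt1, the endothelial markers Pecam1, Cdh5 and Kdr, and Ptprc of leukocytes stayed below 1 TPM in every library. The fourth keratinocyte marker, Krt10, and the other 3 macrophage and leukocyte markers reached 1 TPM in at least 3 libraries. So did the fourth endothelial marker, Tek. The 4 endothelial markers summed to 5.42 to 8.71 TPM in DMSO, 1.09 to 1.18 TPM with Cardamonin and 1.63 to 1.77 TPM with AEG 3482. The part of this in the results was not tested. In bulk RNA a change in the number of cells of a kind and a change in RNA per cell cannot be told apart.

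In DMSO the core and cap genes were expressed at clearly unequal levels per transcript length. Mean levels in the core ran from 26.5 TPM for Psma2 to 257 TPM for Psma4, although each ring takes its subunits in equal number. The 6 ATPases were closest to each other, from 69.2 TPM for Psmc4 to 136 TPM for Psmc3. The non-ATPases ran from 11.8 TPM for Psmd9, an assembly factor that leaves the finished particle, to 164 TPM for Psmd2, a large scaffold subunit. Levels of some genes are uncertain, because the reads of near-identical copies can be divided between them. Over 20% of 31-base words were shared with another gene's transcripts for Psma3, Psma4, Psma5, Psmb3, Psmb5, Psmc1, Psmd2, Psmd9 and Psme2, with the largest shares of 61.0% in Psma5 and 71.7% in Psmb5.

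Promoter sequences are shown for 3 genes that moved together in the results that follow: Psmb5, a catalytic gene, Psmc6, an ATPase gene, and Psmd11, the gene with the largest rise. They are RefSeq sequence of the build GRCm38.p6, read 5′ to 3′ on the gene's own strand. Psmd11 runs up to its RefSeq start, while Psmb5 stops 27 bases and Psmc6 36 bases before theirs, where the GENCODE gene begins. Capitals mark matches to TGACNNNGC, the core of the antioxidant response element that NRF2 and NFE2L1 bind, or to GAANNTTC, a pair of inverted heat shock element units. Psmb5 (chr14:54618023-54618245, minus strand) held one match of each, Psmc6 (chr14:45329574-45329787, plus strand) held one TGACNNNGC match on the opposite strand, and Psmd11 (chr11:80428365-80428614, plus strand) held neither.
Psmb5: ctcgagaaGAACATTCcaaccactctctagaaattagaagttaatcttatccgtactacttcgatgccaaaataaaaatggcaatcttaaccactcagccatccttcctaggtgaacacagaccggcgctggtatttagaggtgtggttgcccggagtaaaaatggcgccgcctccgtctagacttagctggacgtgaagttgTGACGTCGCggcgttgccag
Psmc6: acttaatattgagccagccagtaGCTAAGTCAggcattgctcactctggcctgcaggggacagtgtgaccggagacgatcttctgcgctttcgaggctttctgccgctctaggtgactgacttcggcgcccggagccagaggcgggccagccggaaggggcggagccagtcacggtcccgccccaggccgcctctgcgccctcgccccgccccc
Psmd11: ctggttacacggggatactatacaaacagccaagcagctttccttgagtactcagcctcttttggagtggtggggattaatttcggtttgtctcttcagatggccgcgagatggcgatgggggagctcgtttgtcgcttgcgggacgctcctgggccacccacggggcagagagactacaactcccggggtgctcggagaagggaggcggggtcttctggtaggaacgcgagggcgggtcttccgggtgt

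A RefSeq window of 300 bases, from 250 before to 50 after the start, was found for 37 of the 44 genes, in 40 windows. On either strand TGACNNNGC was in 15.0% of these windows, in Psmb5, Psmb6, Psmc6, Psmd9, Psmd12 and Psme4, and in 12.4% of the 32851 windows of all genes. The CCAAT box, bound by NF-Y, was in 32.5% against 37.4%, and GAANNTTC was in 5.0% against 7.86%. A further motif, GAAANNGAAA, the core of the interferon response element, was added after the data were seen. It was in 12.5% of the windows, in Psmb3, Psmd4, Psmd9, Psmg4 and Psme1, against 3.44% of all windows. A match is a description of letters and not a binding site.

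Cardamonin gave the largest rise of the proteasome genes. Of the 44 genes, 38 rose and 4 fell, while 37.3% of all tested genes rose and 33.0% fell (limma on log2(TPM + 1), Benjamini-Hochberg adjusted p below 0.05). The median log2 fold change was 0.85 over the 44 genes and 0.03 over all tested genes. All 14 core genes and all 6 ATPases rose, with medians of 0.84 and 0.90, and 13 of the 14 non-ATPases rose, with a median of 1.01. Psmd10, Psme1, Psme2 and Psmg1 fell, and Psmg4 and Psmc3ip did not pass the threshold. Each of the 38 genes that rose was higher in all 3 Cardamonin libraries than in any DMSO library. These genes were chosen by passing the threshold, and the share of all called genes that separate in this way is not given. The separation is therefore not further evidence particular to the proteasome.

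With AEG 3482 most of these genes also passed the threshold, with a smaller median. Here 37 of the 44 genes rose and 4 fell, beside 41.3% and 26.8% of all tested genes, and the median was 0.54 beside 0.10 over all tested genes. All 14 core genes passed the threshold as higher, with a median of 0.56, but Psma6 and Psmb1 lost their calls under each of the 3 other scalings and turned to log2 fold changes of -0.01 and -0.04 under quantile normalization. Psmb1 also lost its call without AEG 3482 replicate 3 (adjusted p = 0.177). All 6 ATPases and 13 non-ATPases rose, with medians of 0.59 and 0.75, but the call of the ATPase gene Psmc6 was lost under quantile normalization (adjusted p = 0.0953). The 4 genes that fell were again Psmd10, Psme1, Psme2 and Psmg1. Because both comparisons use the same DMSO libraries, their likeness is not independent evidence.

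Podofilox gave a smaller and less complete rise, of 27 genes, and 2 fell. Among all tested genes 26.2% rose and 20% fell, and the medians were 0.19 for the proteasome genes and 0.04 for all. In the core 9 of 14 genes rose and in the cap 16 of 20. With median-ratio scaling 20 genes rose and 2 fell, beside 3271 and 3058 of the 13644 tested genes. The 7 lost calls were those of Psma5, Psmb2, Psmb5, Psmb6, Psmb7, Psmd12 and Psmd5. Most of them are core genes, so the count in the core depends on the scaling. Rescaling without the 20 most abundant genes lost no call.

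**Figure D1:**
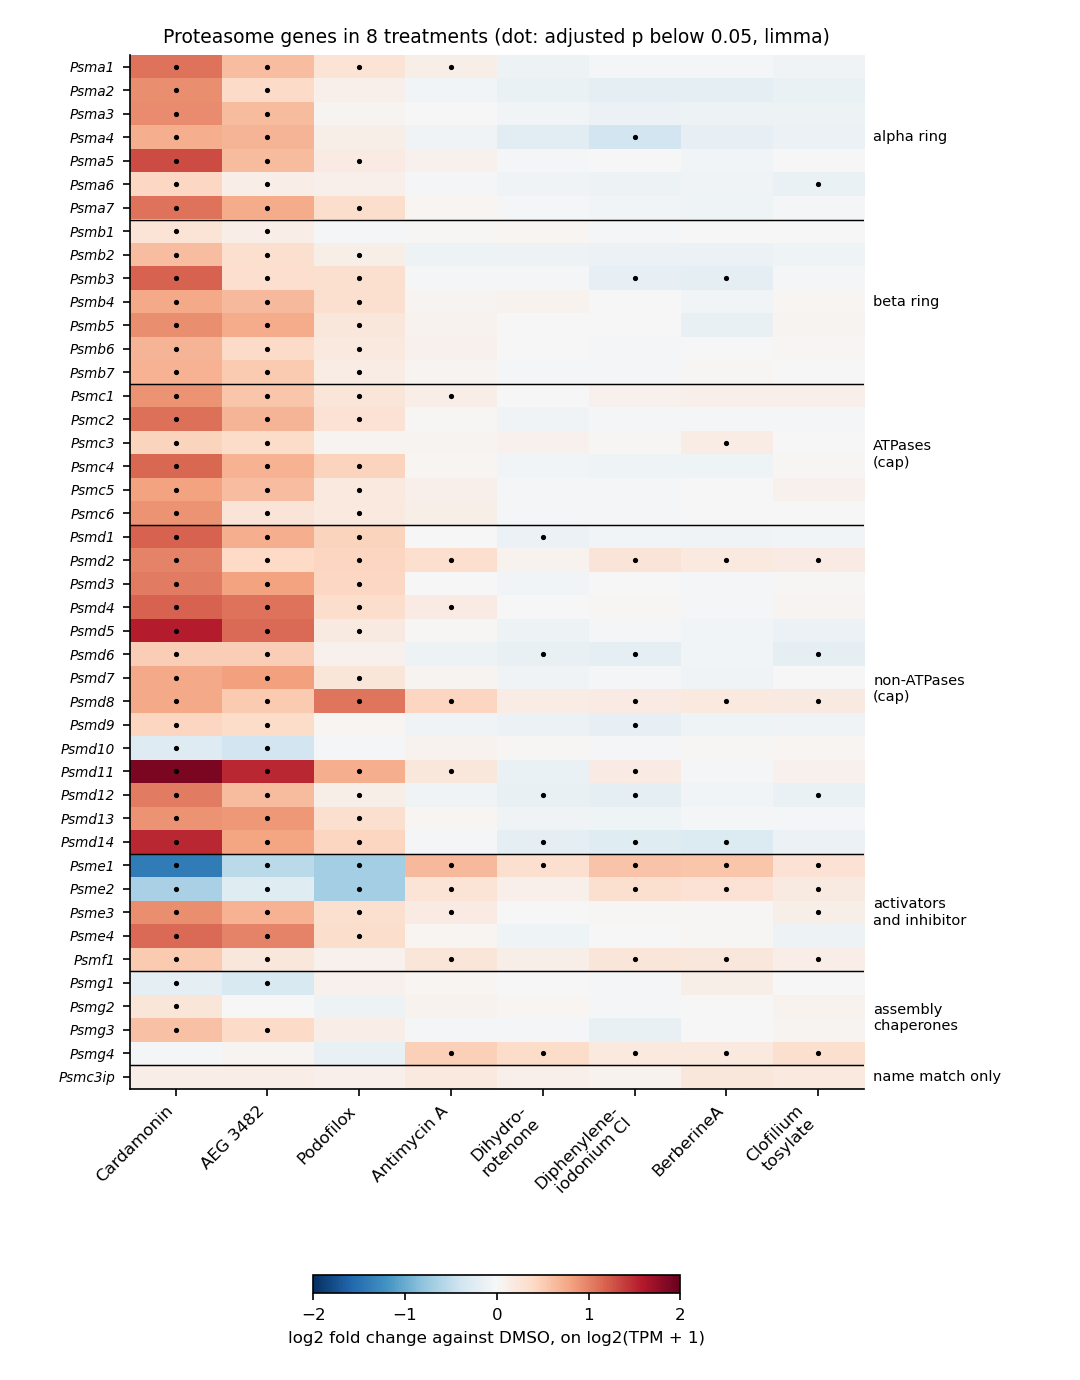
Log2 fold change against DMSO, on log2(TPM + 1), for the 44 genes in 8 treatments, grouped by sub-complex; red is higher, blue is lower and a dot marks an adjusted p below 0.05 in limma. The columns of Cardamonin (38 dots higher, 4 lower) and AEG 3482 (37 higher, 4 lower, of which Psma6 and Psmb1 change sign under quantile normalization) stand out, Podofilox follows with 27 higher, and Psme1 and Psme2 run opposite to the core and cap.

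The summed abundance of the sub-complexes shows the sizes in TPM. The 14 core genes summed to 2187 ± 108 TPM in DMSO (SD, n = 6), 3841 ± 145 with Cardamonin, 3105 ± 108 with AEG 3482 and 2460 ± 77.7 with Podofilox (SD, n = 3 each). These are 1.76, 1.42 and 1.12 times the DMSO mean. The 20 cap genes summed to 1725 ± 44.2 TPM in DMSO, 3412 ± 141 with Cardamonin, 2759 ± 65.0 with AEG 3482 and 2233 ± 32.6 with Podofilox, or 1.98, 1.60 and 1.29 times. No library of these 3 compounds overlapped the DMSO range in either sum. For the beta ring alone, the Podofilox sums did overlap it, with a lowest value of 1254 TPM against a DMSO highest of 1261 TPM. Antimycin A stood next for the cap, at 1871 ± 34.2 TPM or 1.08 times DMSO, with its 3 libraries above the DMSO range. The cap sums with Dihydrorotenone, Diphenyleneiodonium Cl, BerberineA and Clofilium tosylate lay between 0.979 and 1.02 times DMSO and overlapped its range. The 4 assembly chaperones summed to 121 ± 4.64 TPM in DMSO and to 134 ± 7.97 with Cardamonin, and these ranges overlapped. Their sums with Antimycin A (138 ± 7.94 TPM, 1.14 times DMSO) and Clofilium tosylate (133 ± 2.45 TPM, 1.10 times) lay above the DMSO range.

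**Figure D2:**
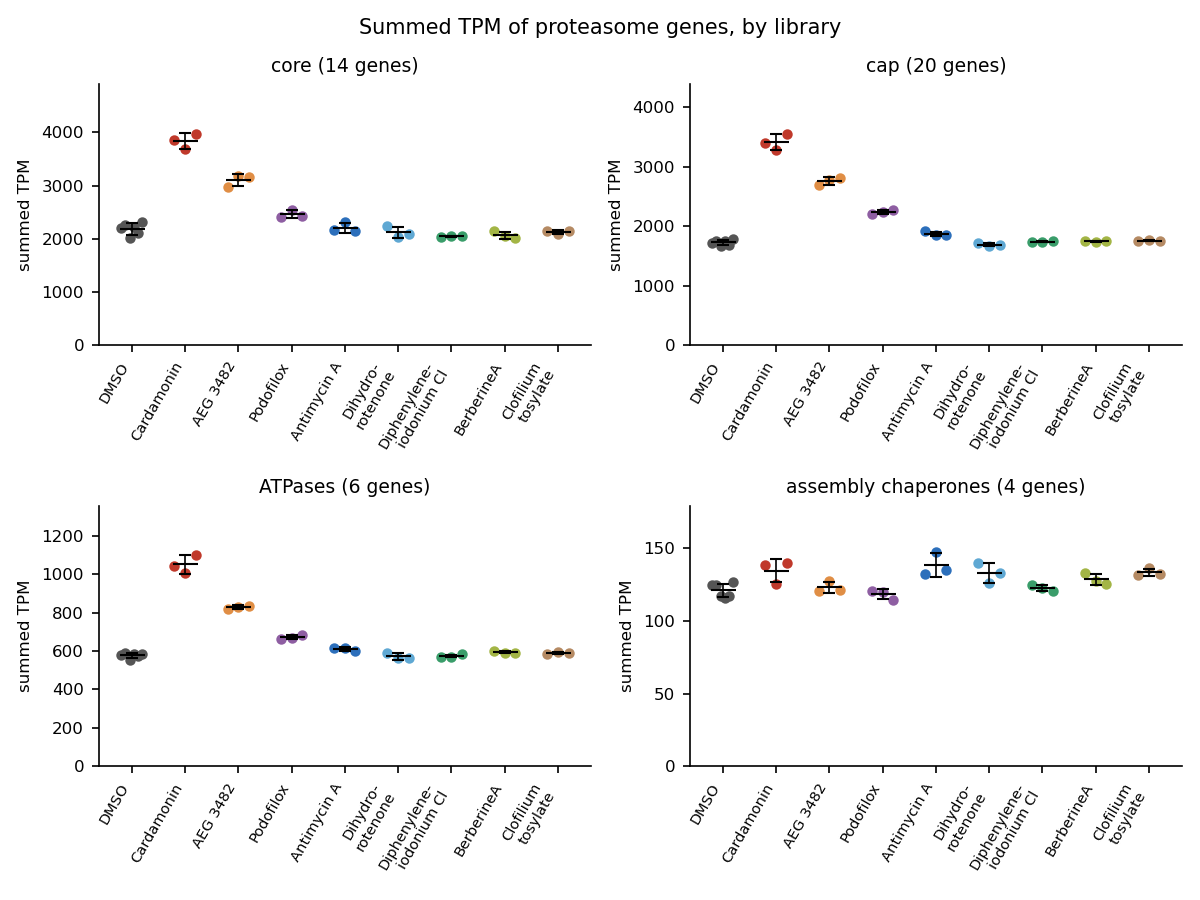
Summed TPM of the core, the cap, the ATPases within the cap and the assembly chaperones in each of the 30 libraries (points), with the group mean and SD (black), each axis starting at 0. Core and cap sums are highest with Cardamonin (3841 and 3412 TPM), then AEG 3482 and Podofilox. The chaperone sums lie between 114 and 147 TPM in all libraries, with Antimycin A and Clofilium tosylate above the DMSO range.

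In the alpha ring, Psma5 changed most with Cardamonin. Its level was 100.1 to 109.7 TPM in the 6 DMSO libraries with a median of 104, and 259, 249 and 279 TPM in the Cardamonin libraries. With AEG 3482 it was 157, 161 and 171 TPM, and no treated library reached down to the DMSO range. The log2 fold changes were 1.31 (SE 0.046, adjusted p = 1.62e-18) and 0.63 (SE 0.046, adjusted p = 7.16e-12). Psma1 and Psma7 were both at 1.09 with Cardamonin, and Psma7 had the largest rise of the ring with AEG 3482 (0.75). Psma6 moved least, from a DMSO median of 173 TPM to 241, 229 and 221 TPM with Cardamonin, a log2 fold change of 0.41 (SE 0.041).

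The beta ring holds the 3 constitutive catalytic subunits. Psmb5, which carries the chymotrypsin-like site, was at 96.0 to 139 TPM in DMSO with a median of 115. It was at 209, 210 and 239 TPM with Cardamonin and 181, 203 and 195 TPM with AEG 3482, all above the DMSO range. Its log2 fold changes were 0.92 (SE 0.071, adjusted p = 1.15e-11) and 0.74 (SE 0.071, adjusted p = 1.15e-09). Psmb6, the caspase-like site, and Psmb7, the trypsin-like site, rose by 0.68 and 0.70 with Cardamonin and by 0.39 and 0.52 with AEG 3482. The non-catalytic Psmb3 rose by 1.18 with Cardamonin, to 364, 332 and 378 TPM from a DMSO median of 153, and by 0.33 with AEG 3482. Psmb1, also non-catalytic, was the least changed of the core, at 287, 289 and 294 TPM with Cardamonin against 228 to 252 TPM in DMSO.

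The ATPases form the unfolding ring of the cap. Psmc4 and Psmc2 had the largest rises, by 1.14 and 1.09 with Cardamonin and by 0.69 and 0.68 with AEG 3482. Psmc2 was at 196, 185 and 203 TPM with Cardamonin, 146, 145 and 146 TPM with AEG 3482 and 86.4 to 96.0 TPM in DMSO. Psmc3, the most abundant ATPase gene in DMSO, rose least with Cardamonin, by 0.44. The ATPase levels were accordingly more alike with Cardamonin, where the coefficient of variation between the 6 genes was 11.6%, than in DMSO, where it was 23.4%.

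Among the non-ATPases, Psmd11 had the largest change of any proteasome gene. This gene (chr11:80428615-80473248, GRCm38, plus strand) encodes a lid subunit that clamps the lid to the ATPase ring and the core. Its level was 61.2 to 76.0 TPM in DMSO with a median of 65.3. It was 254, 246 and 251 TPM with Cardamonin, 193, 182 and 203 TPM with AEG 3482 and 115, 110 and 112 TPM with Podofilox. The 3 treated groups do not overlap each other or DMSO. The log2 fold changes were 1.88 (SE 0.058, adjusted p = 1.18e-19), 1.51 (SE 0.058, adjusted p = 1.99e-17) and 0.73 (SE 0.058, adjusted p = 1.3e-10).

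Psmd14, the deubiquitinase of the lid that removes ubiquitin from substrates, was at 64.9 to 73.5 TPM in DMSO. It was at 201, 197 and 207 TPM with Cardamonin, 125, 123 and 117 TPM with AEG 3482 and 89.9, 90.8 and 102 TPM with Podofilox. Its log2 fold changes were 1.51, 0.79 and 0.42 (SE 0.055 each). In the other direction, Psmd14 fell by 0.27 with BerberineA, by 0.24 with Diphenyleneiodonium Cl and by 0.20 with Dihydrorotenone. Psmd4, a ubiquitin receptor of the cap, rose by 1.18 with Cardamonin and by 1.08 with AEG 3482. Psmd5, which binds the ATPases during assembly, rose by 1.57 and 1.13, from a DMSO median of 42.4 TPM to 127, 124 and 128 TPM and to 87.4, 93.9 and 97.7 TPM.

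Psmd10 (gankyrin) was the exception in the cap. It is a chaperone of ATPase assembly that is absent from the finished particle. Its level was 48.9 to 53.5 TPM in DMSO, 43.1, 43.4 and 43.8 TPM with Cardamonin and 40.0, 39.0 and 39.5 TPM with AEG 3482. Both groups lay below the DMSO range, with falls of 0.25 (adjusted p = 4.27e-06) and 0.39 (adjusted p = 5.17e-09). Psmd9, another such chaperone, rose by 0.43 and 0.37, so the assembly factors of the cap did not move in one direction.

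Psmd8, a lid subunit that joins late in lid assembly, was ordered differently from the other cap genes, with its highest level in Podofilox. It was at 127 to 149 TPM in DMSO with a median of 131, and at 269, 285 and 287 TPM with Podofilox. With Cardamonin it was at 223, 209 and 248 TPM, with AEG 3482 at 185, 194 and 198 TPM, and with Antimycin A at 185, 184 and 175 TPM. The log2 fold changes were 1.06 (SE 0.049), 0.75, 0.52 and 0.43. Psmd8 and Psmd2 each passed the threshold as higher in 7 of the 8 comparisons, which share the DMSO libraries. The share of all tested genes that did so is not given. The exception for Psmd8 and Psmd2 was Dihydrorotenone, but with median-ratio scaling both passed as higher there too. Psmd8 also passed there with quantile normalization and with the replicate block. Of the calls for Psmd8, that in Diphenyleneiodonium Cl (0.17) was lost without replicate 2 (adjusted p = 0.054) or replicate 3 (adjusted p = 0.107) of that group.

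**Figure D3:**
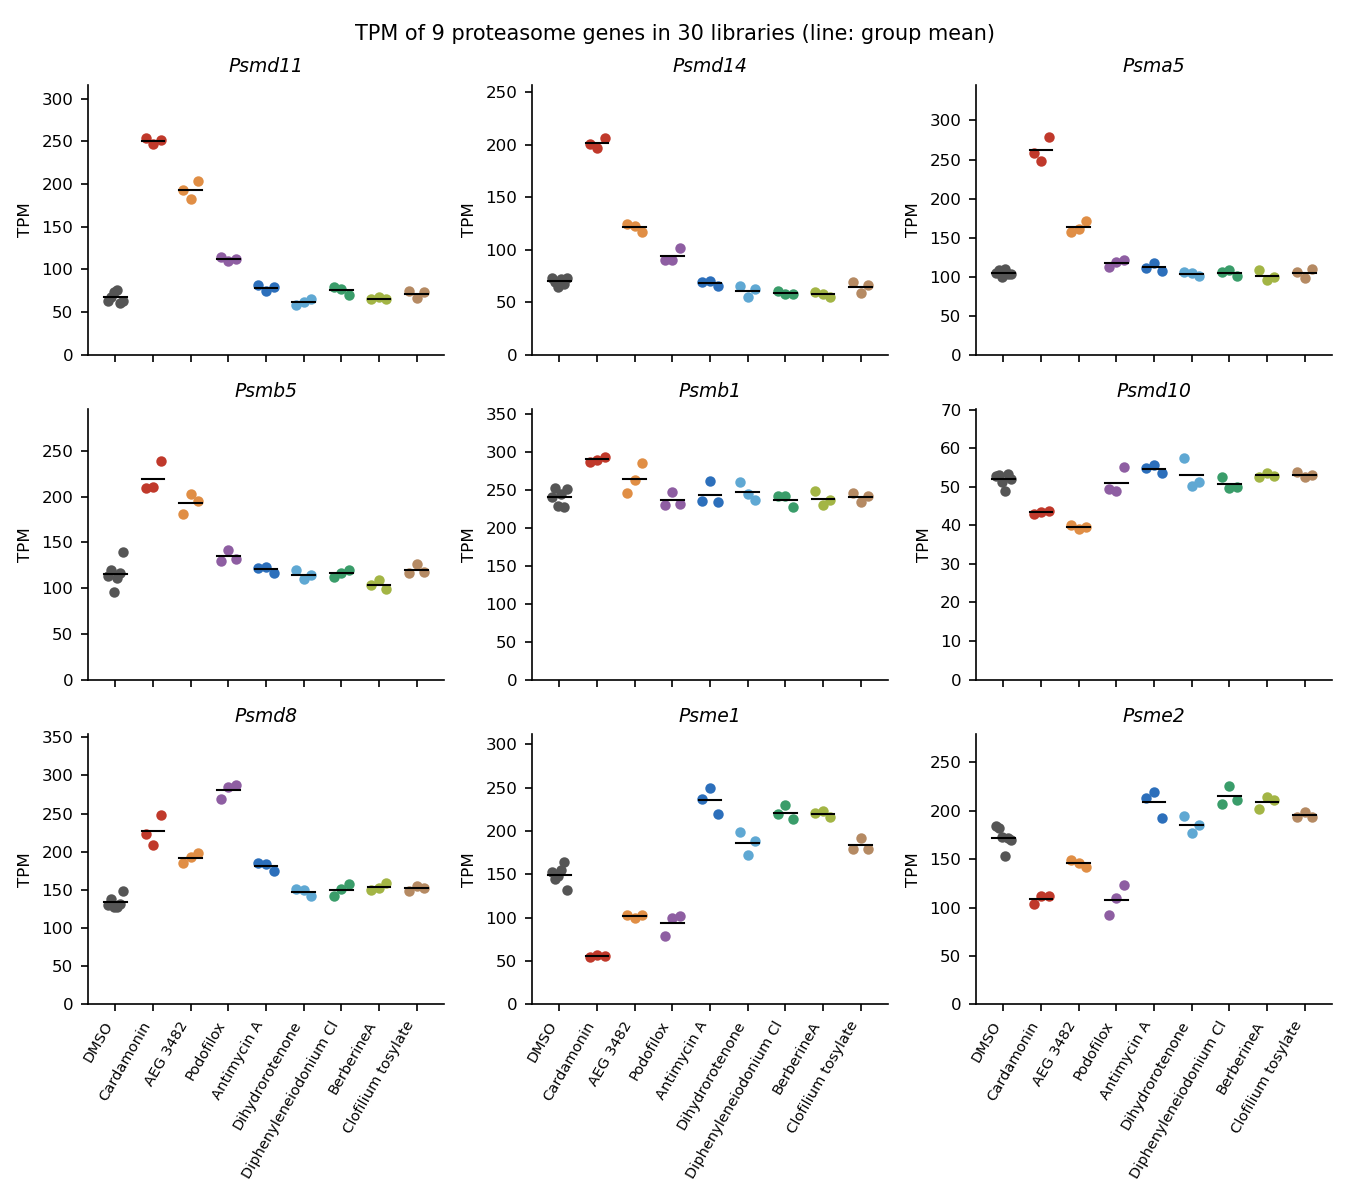
TPM of 9 genes in each of the 30 libraries (points) with the group mean (line), each axis starting at 0. Psmd11, Psmd14, Psma5 and Psmb5 are highest with Cardamonin and next highest with AEG 3482, Psmb1 differs little, Psmd10 is lowest with AEG 3482, Psmd8 is highest with Podofilox (269 to 287 TPM), and Psme1 is lowest with Cardamonin (55.1 to 56.6 TPM).

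The activators split into groups. Psme1 and Psme2 encode the alpha and beta subunits of PA28, a ring that opens the core for peptide production and is induced by interferon gamma. Both genes lie on chromosome 14 (Psme1 at chr14:55578123-55581529, plus strand, and Psme2 at chr14:55587441-55591113, minus strand, GRCm38). Psme1 was at 132 to 164 TPM in DMSO. It was at 55.1, 56.6 and 56.1 TPM with Cardamonin, 104, 99.8 and 103 TPM with AEG 3482 and 79.3, 99.5 and 102 TPM with Podofilox, all below the DMSO range. The falls were 1.40 (SE 0.065, adjusted p = 4.1e-16), 0.54 (SE 0.065, adjusted p = 5.33e-08) and 0.67 (SE 0.065, adjusted p = 3.81e-09).

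With the other 5 compounds Psme1 rose instead. Its log2 fold changes were 0.65 with Antimycin A, 0.57 with Diphenyleneiodonium Cl, 0.56 with BerberineA, 0.32 with Dihydrorotenone and 0.30 with Clofilium tosylate. It was the one gene of the 44 to pass the threshold in all 8 comparisons, which share the DMSO libraries. The share of all tested genes that did so is not given. Psme2 fell by 0.66, 0.24 and 0.67 with Cardamonin, AEG 3482 and Podofilox, and rose with Antimycin A (0.27), Diphenyleneiodonium Cl (0.32), BerberineA (0.28) and Clofilium tosylate (0.18). The last of these calls was lost when any one of the 3 Clofilium tosylate libraries, or any of DMSO replicates 3 to 6, was left out (adjusted p = 0.054 to 0.135). Psme2 shares 33.5% of its 31-base words with Psme2b, which averaged 0.238 TPM.

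Psme3 and Psme4 encode nuclear activators, PA28 gamma and PA200, and followed the core instead. Psme3 was at 49.8 to 51.5 TPM in DMSO, 97.6, 93.2 and 104 TPM with Cardamonin and 84.1, 81.0 and 84.9 TPM with AEG 3482, with log2 fold changes of 0.94 and 0.70. Psme4 rose by 1.13 with Cardamonin, 1.0 with AEG 3482 and 0.35 with Podofilox. Psmf1 encodes PI31, a protein first described as an inhibitor of the core. It rose in 6 of the 8 comparisons, most with Cardamonin (0.53), and by 0.14 to 0.24 in 5 others. The share of all tested genes that rose in 6 is not given. The call with AEG 3482 was lost under quantile normalization (adjusted p = 0.0972). The call with Clofilium tosylate was lost when any of that group's libraries, or DMSO replicate 1, 3, 5 or 6, was left out (adjusted p = 0.053 to 0.177).

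The assembly chaperones of the alpha ring did not move in one direction. Psmg3 rose by 0.59 with Cardamonin and 0.38 with AEG 3482, while Psmg1 fell by 0.18 and 0.31. Psmg2 passed as higher with Cardamonin (0.24), a call that was lost under quantile normalization (adjusted p = 0.0711). With AEG 3482 it was at 0.00 without a call, but passed as lower under quantile normalization (-0.16). Psmg4, the partner of Psmg3, had log2 fold changes of -0.02 (95% interval -0.17 to 0.12) and 0.06 (-0.09 to 0.20) there. It rose in the 5 groups other than Cardamonin, AEG 3482 and Podofilox. With Antimycin A it was at 51.8, 57.0 and 48.8 TPM and with Dihydrorotenone at 53.9, 44.2 and 48.0 TPM, against 35.1 to 39.7 TPM in DMSO, with log2 fold changes of 0.48 and 0.37. Its changes with Clofilium tosylate (0.31), Diphenyleneiodonium Cl (0.20) and BerberineA (0.20) also passed. The last 2 were lost under several alternatives, for example without BerberineA replicate 1 (adjusted p = 0.14) or Diphenyleneiodonium Cl replicate 1 (adjusted p = 0.169).

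Cardamonin and AEG 3482 were compared directly, without DMSO, to test the difference in size. Of the 44 genes 28 were higher with Cardamonin and 2 lower, beside 22.6% and 32.7% of all tested genes, with medians of 0.23 and -0.06. In the core 11 of 14 genes were higher and in the cap 14 of 20. The largest differences were 0.85 for Psmb3 (SE 0.066, adjusted p = 6.59e-11), 0.73 for Psmd14 (SE 0.063, adjusted p = 4.31e-10) and 0.68 for Psma5 (SE 0.053, adjusted p = 6.44e-11). Psmc6 and Psmd2 followed with 0.63 and 0.59. Psme1 and Psme2 were lower with Cardamonin by log2 differences of -0.86 and -0.42.

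For 14 genes no difference between the compounds passed. The difference was 0.01 for Psmd6 (95% interval -0.10 to 0.13), -0.07 for Psmd7 (-0.16 to 0.02), 0.10 for Psmd4 (-0.03 to 0.23) and 0.05 for Psma4 (-0.15 to 0.25). Psmb5 differed by 0.18 (95% interval 0.02 to 0.35) with an adjusted p of 0.0581, although its 3 Cardamonin libraries all lay above the 3 of AEG 3482. Psmb5 passed under each of the 3 other scalings, with the replicate block and without AEG 3482 replicate 2 (adjusted p = 0.0214 to 0.0471). Psmd4 passed with median-ratio scaling (0.18, adjusted p = 0.0276). Of the 14 genes, Psmg1 and Psmg3 also passed under each of the 3 other scalings. Psmc3 passed with median-ratio scaling and with rescaling without the 20 most abundant genes. Psme4 passed with median-ratio scaling and quantile normalization, and Psmb4 with quantile normalization. Psmb1 passed by a narrow margin (0.13, adjusted p = 0.038), and leaving out any Cardamonin library, or AEG 3482 replicate 1 or 2, ended that call (adjusted p = 0.06 to 0.234). Psmd10 lost its call without AEG 3482 replicate 2 (adjusted p = 0.054) and Psmd3 without replicate 1 (adjusted p = 0.052).

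**Figure D4:**
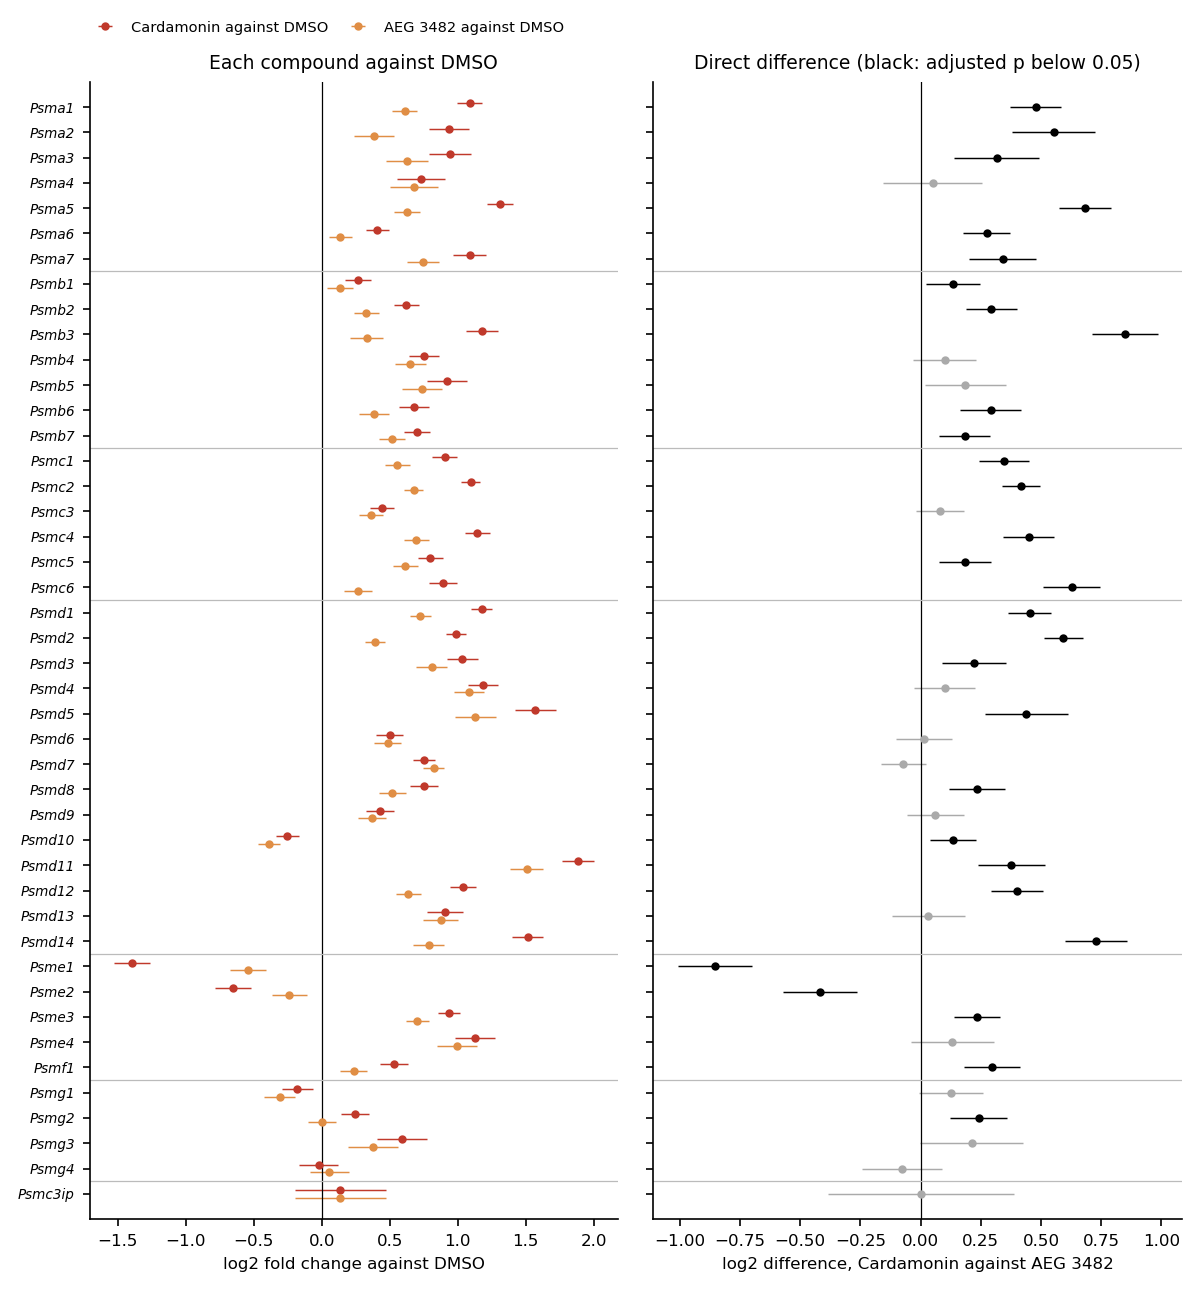
Left, log2 fold change of each of the 44 genes against DMSO with Cardamonin (red) and AEG 3482 (orange); right, the direct difference of the compounds, black where the adjusted p is below 0.05; bars are 95% intervals. Most core and cap genes lie further right with Cardamonin, Psmd6, Psmd7 and Psma4 do not separate, and Psme1 lies furthest left in both panels (-0.86 in the direct difference).

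With the other 5 compounds the core and cap changed little and not in one direction. Antimycin A raised 11 genes and lowered none, beside 21.8% and 15.5% of all tested genes, and 5 of the 11 were Psme1, Psme2, Psme3, Psmf1 and Psmg4. The rest were Psma1, Psmc1 and the non-ATPases Psmd2, Psmd4, Psmd8 and Psmd11. The calls of Psma1, Psmc1 and Psmd4 were lost under each of the 3 other scalings, and the rescaling without the 20 most abundant genes gave 8 higher and 2 lower, and quantile normalization 8 and 1. Without DMSO replicate 3 or 4, 1 gene was called lower. Diphenyleneiodonium Cl raised 7 genes and lowered 6, beside 14.0% and 11.7%, and rescaling without the 20 most abundant genes gave 5 and 9. Without Diphenyleneiodonium Cl replicate 2, 4 genes were called higher. The largest of these falls was that of Psma4, from a DMSO median of 248 TPM to 180, 215 and 196 TPM, a log2 fold change of -0.38 (SE 0.086, adjusted p = 0.00166).

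BerberineA raised 7 genes and lowered 2, Psmb3 and Psmd14, beside 12.6% and 9.16% of all tested genes. Rescaling without the 20 most abundant genes gave 6 and 4, and quantile normalization 6 and 3. Clofilium tosylate raised 7 genes and lowered 3, Psma6, Psmd6 and Psmd12, beside 10.9% and 12.5%, and median-ratio scaling gave 6 and 1. Without Clofilium tosylate replicate 2 the number of genes called there dropped from 10 to 5, and all 3 falls lost their calls. Without Clofilium tosylate replicate 1 or 3, or DMSO replicate 3, 4 genes were called higher. Without BerberineA replicate 3 the fall of Psmb3 lost its call (adjusted p = 0.0796), and without DMSO replicate 3 the number called lower was 5. Medians over the 44 genes were -0.03 with Diphenyleneiodonium Cl, -0.03 with BerberineA and 0.01 with Clofilium tosylate.

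Dihydrorotenone raised Psme1 and Psmg4 and lowered 4 non-ATPase genes, Psmd1, Psmd6, Psmd12 and Psmd14, by 0.12 to 0.20, beside 4.95% higher and 9.43% lower among all tested genes. The 4 falls were not robust. None was called with median-ratio scaling (5 higher, 0 lower), with quantile normalization (4 and 0), or in a fit of these groups alone (2 and 0). Without Dihydrorotenone replicate 1, the library with the other donor age, 5 genes were called, 2 higher and 3 lower. Without replicate 2 the number called was 2 and without replicate 3 it was 3. Without DMSO replicate 2 or 4, 2 genes were called lower.

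Antimycin A and Dihydrorotenone, which act on different complexes of the same chain, were compared directly. Here 7 genes were higher with Antimycin A and none lower, beside 11.6% and 3.91% of all tested genes. They were Psmd11 (0.34), Psme1 (0.33), Psmd8 (0.29), Psmd2 (0.27), Psma1 (0.22), Psme3 (0.16) and Psmd1 (0.14). The calls for Psmd1 and Psme3 were lost under each of the 3 other scalings and that for Psma1 under median-ratio scaling and quantile normalization. Psmd1 and Psme3 also lost theirs without replicate 1 or 3 of either compound.

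Across the 9 group means, most core and cap genes varied together, which is described here without a test. The Pearson correlation of each of these 34 genes with the mean log2 level of the other core and cap genes had a median of 0.98, and it exceeded 0.9 for 31. Of the 34 genes, 31 had their highest mean with Cardamonin. The exceptions were Psmd7, highest with AEG 3482, Psmd8, highest with Podofilox, and Psmd10, highest with Antimycin A. The correlation was -0.86 for Psmd10 and 0.65 for Psmd8, and outside the core and cap it was -0.91 for Psme1 and -0.80 for Psme2. Without Cardamonin and AEG 3482 the median over the remaining 7 groups was 0.92, while Psmb1 (-0.41) and Psmc3 (-0.13) no longer followed the rest. The points share libraries and the sum of all TPM. The shares of all tested genes that peak with Cardamonin or reach such a correlation are not given. These counts are therefore not evidence particular to the proteasome.

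The inducible catalytic genes, which replace their constitutive partners in the immunoproteasome, moved against the core. Psmb8 was at 54.4 to 77.1 TPM in DMSO, 4.61 to 7.05 TPM with Cardamonin and 13.1 to 13.7 TPM with AEG 3482. Psmb8, Psmb9 and Psmb10 fell by 3.33, 3.66 and 2.23 with Cardamonin and by 2.28, 1.88 and 1.61 with AEG 3482. As a share of the summed TPM of Psmb5 and Psmb8, Psmb8 made up 37.5 ± 5.08% in DMSO (SD, n = 6), 2.70 ± 0.717% with Cardamonin, 6.47 ± 0.254% with AEG 3482 and 16.5 ± 0.992% with Podofilox (SD, n = 3 each). With the other 5 compounds the mean share ran from 46.2% to 55.3%, and each of their libraries lay above every DMSO library. Psmb9 made up 14.3% of its pair with Psmb6 in DMSO and 0.488% with Cardamonin, and Psmb10 made up 20.5% and 2.88% of its pair with Psmb7.

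**Figure D5:**
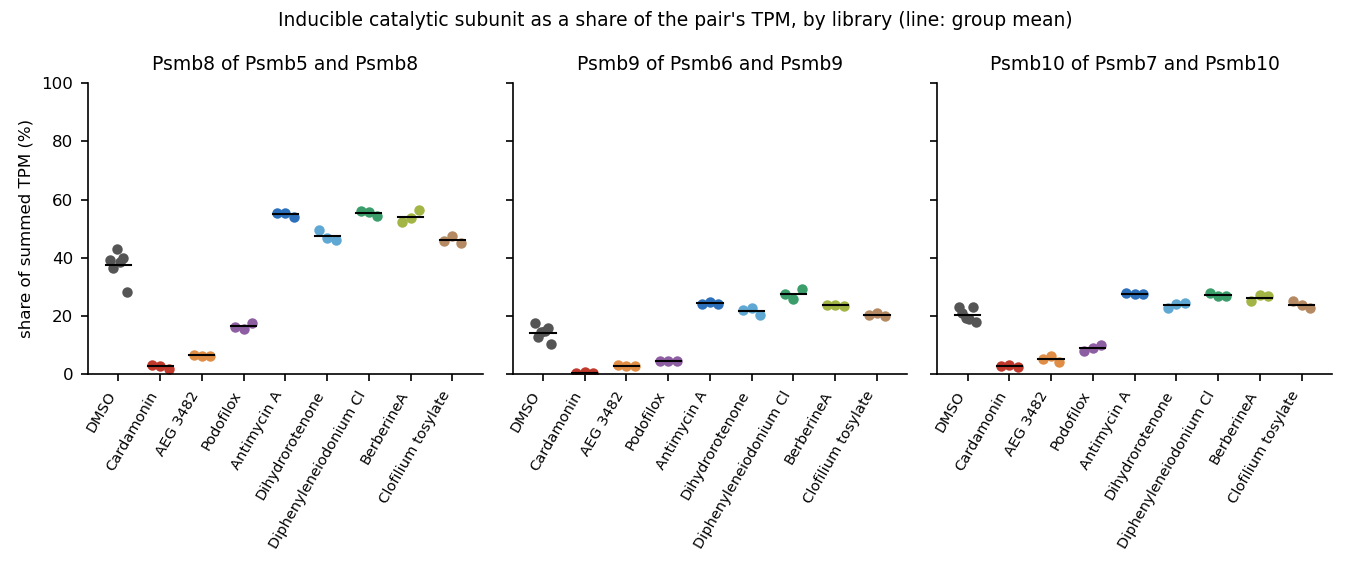
Share of the inducible gene in the summed TPM of each pair (percent, axis from 0 to 100) in the 30 libraries (points) with the group mean (line), for Psmb8 with Psmb5, Psmb9 with Psmb6 and Psmb10 with Psmb7. In each panel Cardamonin, AEG 3482 and Podofilox lie below the DMSO libraries, and Antimycin A, Diphenyleneiodonium Cl and BerberineA lie above them. Dihydrorotenone and Clofilium tosylate lie above them for Psmb8 and Psmb9 and overlap them for Psmb10.

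Other genes of the pathway were counted from lists drawn up with earlier results of these data known. Beside each count stand the shares of all tested genes, 37.3% higher and 33.0% lower with Cardamonin and 41.3% and 26.8% with AEG 3482. Of 5 tested proteasome genes without a Psm name, 4 rose with Cardamonin: Adrm1, a ubiquitin receptor of the cap (1.40), Ecpas (1.10), Akirin2, which brings proteasomes into the nucleus (0.84), and Pomp, which matures the core (0.70). Sem1, a small lid subunit, had a log2 fold change of -0.13 and passed as lower (adjusted p = 0.0486). With AEG 3482 the same 4 were called higher and Sem1 lower. All 8 genes of the shuttle factor list, which carry ubiquitinated cargo, rose with both compounds, led by Sqstm1 with 2.01 and 0.97. All 4 genes listed as proteasome-bound deubiquitinases and ligases also rose with both, including Usp14 with 0.83 and 0.55. The others were Uchl5, Ube3c and Zfand5, and Zfand5 is neither a deubiquitinase nor a ligase. Levels of Adrm1 and Usp14 are uncertain, because they share 27.4% and 25.8% of their 31-base words with other genes.

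Among 9 regulators, 7 rose and 1 fell with Cardamonin (37.3% and 33.0% of all tested genes), and 6 rose and 2 fell with AEG 3482 (41.3% and 26.8%). Nfe2l1 encodes the activator of proteasome genes. It was at 171 to 203 TPM in DMSO, 333 to 350 TPM with Cardamonin and 214 to 244 TPM with AEG 3482. The log2 fold changes were 0.85 and 0.26. Nfe2l1 was also at 265 to 298 TPM with Antimycin A and 231 to 276 TPM with Clofilium tosylate. There the median log2 fold changes of the core and cap genes were 0.04 and -0.01. It was at 221 to 253 TPM with Podofilox, 216 to 226 with Diphenyleneiodonium Cl, 190 to 243 with BerberineA and 198 to 203 with Dihydrorotenone. Whether Nfe2l1 and the proteasome genes move together was not tested. With Cardamonin and AEG 3482, Nfe2l2, which encodes NRF2, rose by 0.42 and 0.38. Vcp, the segregase that extracts NFE2L1 from the membrane, rose by 0.96 and 0.72. Ngly1, the deglycosylase that processes NFE2L1, fell by 0.68 and 0.21. Nfya, a subunit of NF-Y, differed in direction, with a rise of 0.87 with Cardamonin and a fall of 0.53 with AEG 3482. Of 6 genes for ubiquitin and its activating enzymes, 3 rose and 1, Rps27a, fell with each compound. The genes that rose were not all the same. Ubb rose by 0.55 with Cardamonin and was at -0.03 with AEG 3482. Uba6 rose by 0.55 with AEG 3482 and was at 0.12 with Cardamonin. Levels of Vcp, Rps27a and Ubb are uncertain too, with 46.3%, 28.5% and 50.3% of their 31-base words shared.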

How the data were processed

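Per the labels' protocols, RNA of 30 fibroblast samples was sequenced after ribosomal depletion. Per the series text and the submitters' processing notes, the authors quantified transcripts with kallisto 0.43.1, used tximport to get gene-level values, and ran DESeq2 for their own comparisons. The notes name the build mm10, and the transcript annotation is not given in the sources used here. The deposited table holds TPM for 29861 genes, and the listed genes sum to 92.7% to 93.7% of 1000000, so depth is unknown and no counting intervals are given. Symbols came from GENCODE M21 for 29505 genes (98.8%).

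Values were transformed to log2(TPM + 1), which understates changes of low genes. The 13644 genes that reached 1 TPM in 3 or more libraries were fitted over all 30 libraries with limma 3.58.1 in R 4.3.3, with an intensity trend, Benjamini-Hochberg adjustment within each comparison and a threshold of 0.05. The fit was tested on simulated data. Alternatives were a pseudocount of 0.1 TPM, no filter or a mean of 5 TPM, median-ratio scaling, quantile normalization, rescaling without the 20 most abundant genes, a fit of the compared groups alone, no intensity trend, protein-coding genes alone, a replicate block, and leaving out each library. The members, lists and naming rule were chosen with earlier results of these data known. The rule names, per sub-complex, the 2 largest rises and the 2 largest falls, with 10 genes always named, and leaves all members open to naming. Replicate numbers are shared between groups but the labels do not say that they mark a shared batch. Sequences are from RefSeq.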

Additional observations from a re-analysis of the deposited data

Results flagged for a closer look

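In the 6 DMSO libraries, 3 of the 44 genes had 1 library far from the other 5 by Dixon's criterion, which chance meets in about 1 of 20 genes. Psma3 was at 194 TPM in DMSO replicate 3, while the others were at 223 to 230 TPM. Psmb4 was at 228 TPM in DMSO replicate 6, while the others were at 187 to 199 TPM. Psmg2 was at 34.2 TPM in DMSO replicate 2, while the others were at 36.3 to 37.3 TPM. The rises of Psma3, Psmb4 and Psmg2 with Cardamonin stayed past the threshold when any one library was left out, but that of Psmg2 was lost under quantile normalization (0.13, adjusted p = 0.0711).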

How the results depend on the processing

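Over the 44 genes and all settings, 7802 values kept their call or stayed without one, 219 lost their call, 62 gained one and 3 reversed. Genes without a call in either fit count among the 7802 even where their sign changed. The reversed values were all for AEG 3482 under quantile normalization: Psma6 at -0.00801, Psmb1 at -0.0416 and Psmg2 at -0.165. The cause was not tested. Depth is unknown, so counting error could not be separated from other spread.

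With median-ratio scaling the median log2 fold change of the 44 genes was 0.00724 with Dihydrorotenone, -0.0506 with Diphenyleneiodonium Cl, -0.0561 with BerberineA, 0.0182 with Clofilium tosylate, 0.432 with AEG 3482, 0.154 with Podofilox, 0.314 for Cardamonin against AEG 3482 and 0.0384 for Antimycin A against Dihydrorotenone, where 4 genes were called. With quantile normalization it was 0.0116 with Antimycin A, -0.0507 with Diphenyleneiodonium Cl, 0.756 with Cardamonin, 0.391 with AEG 3482, 0.149 with Podofilox and 0.0343 for Antimycin A against Dihydrorotenone, where 4 genes were called. Rescaling without the 20 most abundant genes gave 0.0132 with Antimycin A, -0.0586 with Diphenyleneiodonium Cl, -0.0560 with BerberineA, 0.00114 with Clofilium tosylate and 0.465 with AEG 3482. In a fit of the compared groups alone, 2 genes were called with Dihydrorotenone and 6 with Clofilium tosylate.

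Samples that share a replicate number did not deviate together: of 24 pairs with DMSO, 2 correlated above 0.1 (median 0.0184), so the numbers do not show a pairing. With the replicate block the median was -0.0255 with Diphenyleneiodonium Cl and 0.201 with Podofilox, and 4 genes were called with Clofilium tosylate.

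Leaving out 1 library at a time gave 2 to 8 genes called with Dihydrorotenone and 5 to 9 with Clofilium tosylate. The medians ranged from -0.0384 to -0.0152 with Diphenyleneiodonium Cl, -0.0468 to -0.00745 with BerberineA, 0.00234 to 0.0267 with Clofilium tosylate and 0.167 to 0.196 with Podofilox. With Cardamonin 42 genes were called in every such fit, and with AEG 3482 40 to 41.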
